A study of Mus musculus with 18 samples.

Results

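The genes described here are 10 chaperones and other genes of the unfolded protein response that are not counted among the targets of the transcription factor ATF4. These genes are Hspa5, Hsp90b1, Dnajc3, Dnajb9, Dnajb11, Pdia4, Pdia6, Xbp1, Herpud1 and Sdf2l1. They were taken by symbol from the 21003 gene symbols of the count table. All 10 had counts and passed the filters on low counts in both fits used below.

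Proteins that enter the endoplasmic reticulum (ER) are folded there by chaperones and by enzymes that form disulfide bonds. When unfolded proteins accumulate, the membrane sensors IRE1, PERK and ATF6 raise the expression of such chaperones, partly through the transcription factor XBP1, whose mRNA IRE1 splices, and partly through ATF6 itself. In haematopoietic stem cells this response is known for its link to protein quality control and to survival under stress.

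The 18 libraries fell into 3 groups of 6, and each was built from the RNA of 100 sorted LT-HSCs, the long-term haematopoietic stem cells of the bone marrow, from mice aged 8 to 12 weeks. The labels give the strain as B6.SJL in one field and the genotype as c57 B6 WT in another, and this holds for every group. One group was fresh, uncultured cells, labelled pH 7.4, and the other groups were cultured for 48 h at pH 7.4 or at pH 6.9. The medium was IMDM with 10% fetal bovine serum, mSCF, GCSF and mTPO at 50 ng/ml, kept at 37 °C in 5% CO2 and 3% O2. The design text names 6 individual mice, so libraries with the same replicate number were taken to come from 1 mouse. The comparison of interest is that of the 2 culture pH values, and the series title names polyamines, which are not examined here.

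Library totals ranged from 1640817 to 7508120 counts, apart from fresh replicate 1 with 6311 counts. Fresh replicate 4 and pH 6.9 replicate 3 had 9408 and 8925 genes detected, against 11225 to 12792 in the 15 libraries other than these 3. Within each group the odd-numbered and the even-numbered mice carried different first sequencing indices. By edgeR's adjusted p these 2 sets of mice differed over the 15 libraries in 1532 of 10659 genes at pH 6.9, 355 at pH 7.4 and 6 in fresh cells, and over all 18 libraries in 152, 0 and 0 of 10104 genes, so each comparison is given over all 18 libraries and then within each set over the 15 libraries. Every combination of group and set has its own first index, so index, mice and condition cannot be told apart in a comparison between such combinations. Of 15 genes chosen as LT-HSC markers (a list that also holds Ptprc, Cd48 and Flt3, which are not specific to these cells), the summed level was 947 to 1182 CPM in fresh cells, 794 to 1835 at pH 7.4 and 1354 to 2020 at pH 6.9 over the 15 libraries, where CPM is counts per 1000000 on TMM-scaled library totals. Kit, the receptor for stem cell factor, was detected in 18 of 18 libraries. Ly6g, a mature granulocyte marker, was at 0 in all 18, Mzb1, a plasma cell gene, in 16, and Cdh5, an endothelial gene, in 17. Other genes of these 3 lists were detected more often, with Itgam at 0 in 4 libraries, Cd79b in 1 and Pecam1 in 0. Of the LT-HSC list, Fgd5 and Hoxb5 were at 0 in 4 libraries each. These genes alone thus do not show how pure the cells were.

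The promoters of several of these genes carry the ER stress response element (ERSE), a sequence known to be bound by ATF6 and XBP1 together with NF-Y. The windows below show each exact match found in RefSeq promoters of 300 bases on GRCm38.p6, running from 250 bases before to 50 bases after the annotated start. They are shown because 6 of the 10 genes hold such a match and 4, Pdia4, Dnajb9, Sdf2l1 and Xbp1, hold none. Capitals mark the fixed letters of the motif, and each window is written 5′ to 3′ on the strand of the gene.
Hspa5, plus strand, chr2:34772020-34772048: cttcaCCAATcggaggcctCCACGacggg
Hsp90b1, minus strand, chr10:86705513-86705676: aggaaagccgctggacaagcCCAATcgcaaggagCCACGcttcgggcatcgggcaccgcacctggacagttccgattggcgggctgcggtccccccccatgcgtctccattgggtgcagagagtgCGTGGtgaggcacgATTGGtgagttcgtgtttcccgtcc
Pdia6, plus strand, chr12:17266471-17266529: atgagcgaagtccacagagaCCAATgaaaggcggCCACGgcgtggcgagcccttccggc
Dnajc3, plus strand, chr14:118937807-118937865: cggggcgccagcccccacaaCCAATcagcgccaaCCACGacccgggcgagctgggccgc
Herpud1, plus strand, chr8:94386357-94386407: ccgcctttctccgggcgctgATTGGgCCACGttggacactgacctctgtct
Dnajb11, plus strand, chr16:22857843-22857871: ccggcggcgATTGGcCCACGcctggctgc

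The first 4 genes hold ERSE, searched on both strands as CCAAT and CCACG with 9 free bases between them, and Hsp90b1 holds it at 2 places, once on each strand. Herpud1 and Dnajb11 hold the related ERSE-II, searched as ATTGG and CCACG with 1 free base between them. Exact ERSE letters were present in 4 of the 10 genes' promoters and in 39 of 32851 promoters of the same length (0.119%). ERSE-II was present in 2 of 10 and in 12 of 32851 (0.0365%). In Hspa5 the match lay 65 to 47 bases before the RefSeq start, in Pdia6 98 to 80, in Dnajc3 105 to 87, in Herpud1 52 to 42, and in Hsp90b1 212 to 194 and 107 to 89. In Dnajb11 it lay after the start. The windows of Hspa5 and Dnajb11 were kept short because they fall inside a gene model of GENCODE M21. The UPRE core TGACGTGG, known as an XBP1 site, was in 0 of 10 and in 0.676% of promoters. The letters CCACG, which ERSE and ERSE-II both contain, was in 9 of 10 and in 32.8% of promoters, and the letters TGACG, contained in the UPRE core, in 4 of 10 and in 20.8%. With 1 mismatch allowed in its fixed letters, ERSE was found in a further 2 genes, Pdia4 and Herpud1, and at another place in Hsp90b1, against 461 promoters (1.4%). A match describes letters in this window only. Among the genes of 6 other lists of the ER pathway, 6 of 109 with a promoter held exact ERSE letters (Calr, Canx, Creld2, Derl3, Ero1b and Syvn1) and 1 held ERSE-II (Krtcap2).

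Per kilobase of transcript, Pdia6 and Hspa5 had the highest levels. Averaged over the 15 libraries, Pdia6, a disulfide isomerase, stood at 310.1 ± 50.5 CPM per kb (SD, n = 15), Hspa5 (BiP, the HSP70 of the ER) at 257 ± 71.7, and Hsp90b1 (GRP94, the HSP90 of the ER) at 228 ± 67.5. Xbp1, the transcription factor, followed at 166 ± 39.4 and Sdf2l1, a cofactor of BiP complexes, at 126 ± 44.9. These levels describe a ranking in which neighbours overlap. Herpud1, a membrane protein of ER-associated degradation, stood at 91.9 ± 21.4 CPM per kb, and Dnajb11 (ERdj3, a J-domain partner of BiP) at 89.0 ± 16.3. Pdia4, another disulfide isomerase, stood at 54.1 ± 15.3, Dnajc3 (p58IPK, a J-domain protein) at 38.4 ± 3.51, and Dnajb9 (ERdj4, also a J-domain protein) at 15.6 ± 5.20. Within single libraries, Pdia6 was above Hspa5 in 13 of 15, Hspa5 above Hsp90b1 in 12, Hsp90b1 above Xbp1 in 11, Xbp1 above Sdf2l1 in 10 and Sdf2l1 above Herpud1 in 11. Herpud1 was above Dnajb11 in 7 of 15, so these neighbours had no fixed order. Dnajb11 was above Pdia4 in 15 of 15, Pdia4 above Dnajc3 in 12, and Dnajc3 above Dnajb9 in 15.

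**Figure D1:**
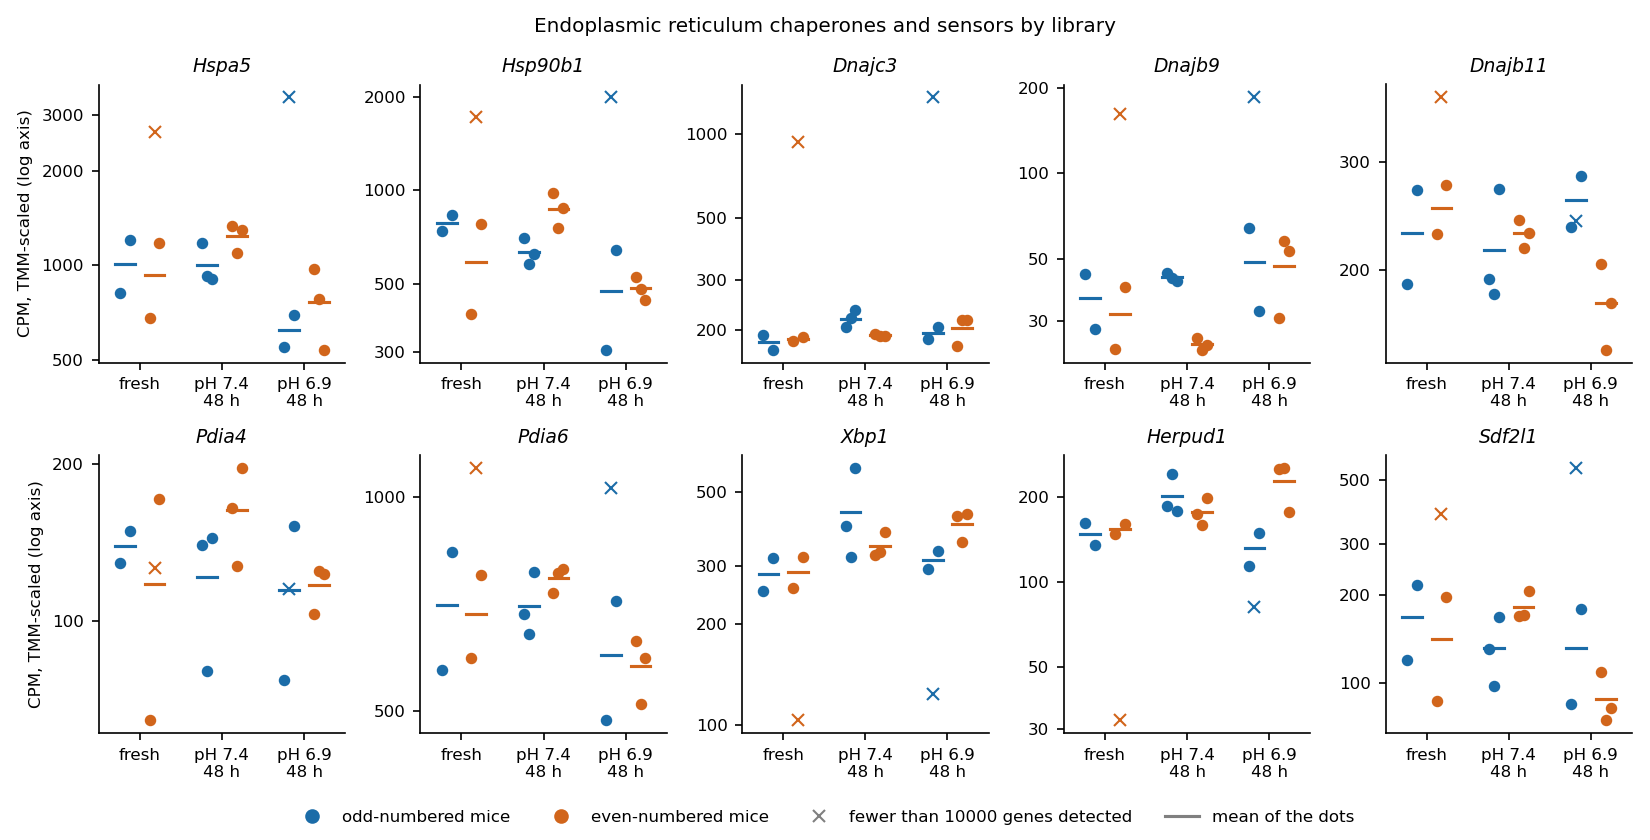
Each panel gives 1 gene, with CPM on a log axis and the 3 groups along the horizontal axis. Dots are libraries of odd-numbered (blue) and even-numbered (orange) mice, lines are means of the dots, crosses are fresh replicate 4 and pH 6.9 replicate 3, and fresh replicate 1 with 6311 counts is not drawn. Hspa5, Hsp90b1, Dnajc3, Dnajb9 and Sdf2l1 are far above their group in the crosses, and Xbp1 and Herpud1 are below.

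Over all 18 libraries, none of the 10 genes passed the test for a change between pH 6.9 and pH 7.4, between pH 7.4 culture and fresh cells, or between pH 6.9 culture and fresh cells. In edgeR's quasi-likelihood test, 0 of 10 had an adjusted p under 0.05 in each comparison, and so did 0 of all 10104 genes (0%). At an unadjusted p under 0.05 the counts were 1, 0 and 0 of 10, against 254 (2.51%), 381 (3.77%) and 229 (2.27%) of all genes. DESeq2 called 0 of the 10 in each comparison, against 4, 0 and 0 of 10046 genes. The 1 gene at the unadjusted threshold was Dnajb9 between the pH values, with a log2 fold change of 1.05 ± 0.50 (SE, adjusted p = 0.997), and Dnajc3 followed with 0.93 ± 0.53 (adjusted p = 0.997). Both values rested on pH 6.9 replicate 3, where Dnajb9 was 186 CPM and Dnajc3 1355 CPM, against 30.7 to 64.2 and 175 to 216 CPM in the 5 libraries of that group besides it. Over the 15 libraries they were 0.49 ± 0.26 for Dnajb9 and -0.05 ± 0.13 for Dnajc3. The same library also set the value of Hspa5, which was 0.05 ± 0.45 over 18 libraries and -0.67 ± 0.20 over 15 (adjusted p = 0.671), and that of Hsp90b1, which was -0.04 ± 0.42 over 18 and -0.66 ± 0.22 over 15 (adjusted p = 0.755).

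Within the sets of mice, 4 of the 10 genes (Hspa5, Hsp90b1, Pdia4 and Pdia6) had negative log2 fold changes at pH 6.9 over pH 7.4 in both sets, 1 (Dnajb9) had positive ones in both, and 5 had opposite signs. Of all these changes 1 passed the test, that of Hsp90b1 in even-numbered mice (-0.87, edgeR adjusted p = 0.0417). It was lost with the mouse number as a term, over all 18 libraries and when any 1 of the 6 libraries compared was left out. In even-numbered mice 6 of the 10 genes had all 3 libraries at pH 6.9 below all 3 at pH 7.4, against 16.4% of 10659 genes tested, and 1, Dnajb9, had them above, against 15.6%. In odd-numbered mice 2 of 10 lay entirely below, against 19.4% of genes, and 0 entirely above, against 19.1%. By adjusted p under 0.05, 1 of 10 was called in even-numbered mice, against 719 genes (6.75%), and 0 of 10 in odd-numbered mice, against 1181 genes (11.1%). At an unadjusted p under 0.05 the counts were 5 of 10 in even-numbered mice (21% of all genes) and 2 of 10 in odd-numbered mice (26.7% of all genes). DESeq2 called 3 of 10 in even-numbered and 0 of 10 in odd-numbered mice, against 1097 and 1666 of 10654 genes. The median log2 fold change of the 10 genes was -0.41 in even-numbered mice, where that of all genes was 0.04, and -0.20 in odd-numbered mice, where that of all genes was -0.08. Even-numbered mice are given as 3 libraries against 3, and odd-numbered mice as 2 libraries at pH 6.9 against 3 at pH 7.4, since pH 6.9 replicate 3 was left out.

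**Figure D2:**
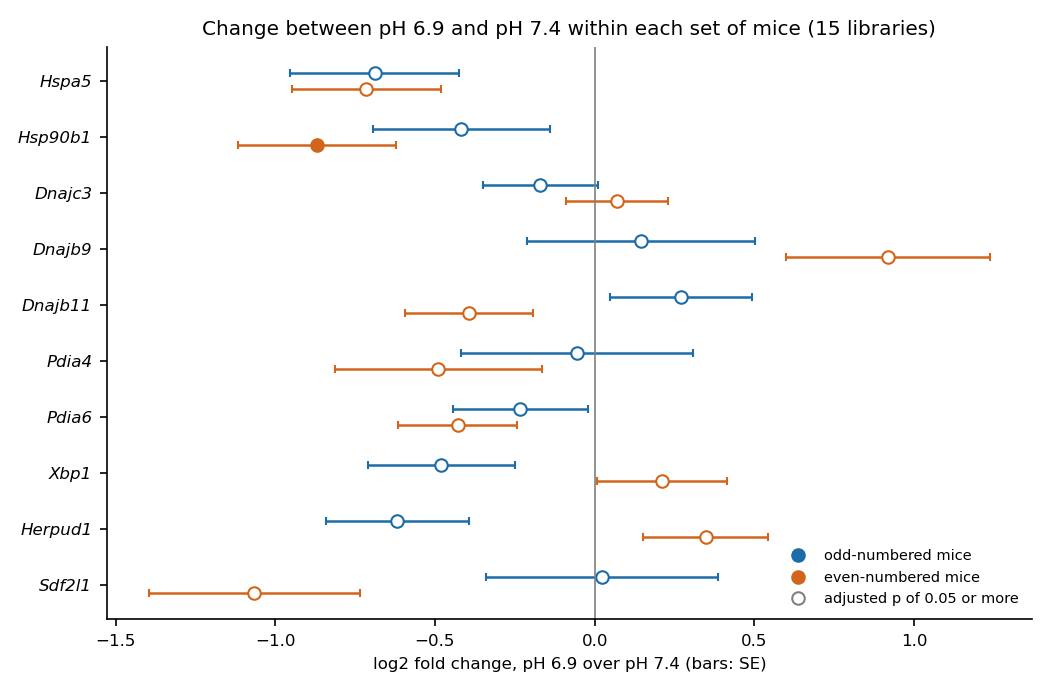
Points are the log2 fold change at pH 6.9 over pH 7.4 for each gene (horizontal axis), in odd-numbered (blue) and even-numbered (orange) mice, with bars of 1 SE, and filled points have an edgeR adjusted p under 0.05. Hspa5 lies near -0.7 in both sets, Hsp90b1 in even-numbered mice is the filled point at -0.87, and Herpud1 lies on opposite sides of 0.

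Hspa5 (chromosome 2, 34771970 to 34777547 of GRCm38, 9 exons) encodes BiP, the main HSP70 chaperone of the ER, which also holds the sensors inactive. In even-numbered mice it stood at 1330.0, 1092 and 1297 CPM at pH 7.4, against 971, 782 and 538 CPM at pH 6.9. Odd-numbered mice had 1179, 924 and 903 CPM at pH 7.4, against 549.7 and 695 CPM at pH 6.9. In both sets every pH 6.9 library was below every pH 7.4 library, although over both sets the highest pH 6.9 library (971) was above the lowest pH 7.4 library (903). The fresh libraries, at 677, 815, 1201 and 1179.7 CPM, overlapped both culture groups. The log2 fold change was -0.71 ± 0.23 (SE) in even-numbered mice (edgeR adjusted p = 0.0732) and -0.69 ± 0.26 in odd-numbered mice (adjusted p = 0.101), so neither passed. Under the alternatives the adjusted p ran from 0.0093 to 1 in even-numbered and from 0.034 to 0.604 in odd-numbered mice. With all 18 libraries the odd-numbered value turned to 0.64, since pH 6.9 replicate 3 held 3428 CPM. The 2 values differed by 0.03 (odd minus even, adjusted p = 0.972). Their mean, -0.70 ± 0.18, is a fold change of 0.615 and had an edgeR p of 0.000852 before and 0.106 after adjustment over all genes. That mean was added after the libraries had been inspected, and it called 28 of 10659 genes (0.263%) and 0 of the 10.

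Hsp90b1 (chromosome 10, 86690209 to 86705509, minus strand, 18 exons) encodes GRP94, the HSP90 of the ER, which folds integrins and Toll-like receptors among others. In even-numbered mice it stood at 984, 758 and 875 CPM at pH 7.4, against 523, 481 and 443 CPM at pH 6.9. The odd-numbered libraries held 703, 576 and 622 CPM at pH 7.4, against 305 and 640.4 CPM at pH 6.9. The even-numbered groups were apart, while in odd-numbered mice pH 6.9 replicate 5 lay within the pH 7.4 range. Fresh libraries were at 399, 739.9, 834 and 778 CPM. The log2 fold change was -0.87 ± 0.25 (SE) in even-numbered mice, with an edgeR adjusted p of 0.0417, and -0.42 ± 0.28 in odd-numbered mice, with an adjusted p of 0.36, and the difference of 0.45 between the sets did not pass (adjusted p = 0.437). Under the alternatives the odd-numbered value ran from -1.06 to 0.63, the latter over all 18 libraries. The call did not hold when the mouse number was a term in the fit (-0.86, adjusted p = 0.0573), over all 18 libraries (-0.85, adjusted p = 1), or when any 1 of the 6 libraries compared was left out (adjusted p = 0.055 to 0.167). Over all 11 alternatives the adjusted p of Hsp90b1 ran from 0.000996 to 1, and 3 of them called it.

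Sdf2l1 (chromosome 16, 17130138 to 17132383, minus strand, 3 exons) encodes a cofactor that works with BiP and Dnajb11 to keep client proteins soluble. In even-numbered mice it stood at 169, 172 and 207 CPM at pH 7.4, against 109, 74.5 and 82.2 CPM at pH 6.9. Among odd-numbered mice the values were 131, 97.5 and 168 CPM at pH 7.4, against 85.1 and 179.7 CPM at pH 6.9. The sets thus looked different, with separate groups in even-numbered and overlapping groups in odd-numbered mice. Fresh libraries were at 86.8, 119.8, 217 and 197 CPM. The log2 fold change was -1.07 ± 0.33 (SE) in even-numbered mice (edgeR adjusted p = 0.0622) and 0.02 ± 0.36 in odd-numbered mice, and the difference of 1.09 ± 0.49 did not pass (adjusted p = 0.137). With the mouse number as a term the even-numbered value was -1.05 and passed, with an adjusted p of 0.0269, and over all alternatives it ran from 0.000352 to 1.

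Dnajb11 (chromosome 16, 22857845 to 22879634, 11 exons) encodes ERdj3, the J-domain protein that hands unfolded clients to BiP. In even-numbered mice it stood at 242, 218 and 230.0 CPM at pH 7.4, against 205, 148 and 177 CPM at pH 6.9. The odd-numbered libraries held 194, 183 and 271 CPM at pH 7.4, against 235 and 285 CPM at pH 6.9. The groups were apart in even-numbered mice and overlapped in odd-numbered mice. Neither change passed, at -0.39 ± 0.20 (SE, edgeR adjusted p = 0.271) for even and 0.27 ± 0.22 for odd numbers. The sets differed by 0.66, which did not pass either (adjusted p = 0.134).

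Dnajc3 (chromosome 14, 118937976 to 118981697, 12 exons) encodes p58IPK, a J-domain protein of the ER. It had the smallest relative spread of the 10 genes over the 15 libraries, from 169.6 to 234 CPM. At pH 7.4 it was 204, 219.7 and 234 CPM in odd-numbered mice, against 194, 190.1 and 190.4 CPM for even numbers. At pH 6.9 it was 186 and 205 CPM in odd-numbered mice, against 175, 216 and 216 CPM for even numbers. Its log2 fold changes between the pH values, -0.17 ± 0.18 (SE) with odd and 0.07 ± 0.16 with even numbers, were within their errors.

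Dnajb9 (chromosome 12, 44205559 to 44210326, minus strand, 3 exons) encodes ERdj4, a J-domain protein that brings BiP to IRE1 and to proteins bound for degradation. In even-numbered mice it stood at 26.3, 23.8 and 24.7 CPM at pH 7.4, against 30.7, 57.5 and 53.3 CPM at pH 6.9. Odd-numbered mice had 44.4, 42.7 and 41.6 CPM at pH 7.4, against 64.2 and 32.8 CPM at pH 6.9. It was the 1 gene of the 10 with higher values at pH 6.9 in all even-numbered libraries, at a log2 fold change of 0.92 ± 0.32 (SE), which did not pass (edgeR adjusted p = 0.0931). The odd-numbered value was 0.15 ± 0.36, with groups that overlapped. At pH 7.4 the odd-numbered mice were all above the even-numbered mice, by 0.77 ± 0.32 (adjusted p = 0.186). Of all genes, 13% lay entirely above in this contrast and 13.9% entirely below. Of the 10 genes Dnajc3 was also above, and Hsp90b1 and Sdf2l1 were below.

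Pdia4 and Pdia6 encode disulfide isomerases of the ER, and Pdia6 is known to act on the sensors as well. Pdia4 (chromosome 6, 47796141 to 47813430, minus strand, 10 exons) was 165, 127 and 197 CPM at pH 7.4 and 103, 125 and 123 CPM at pH 6.9 in even-numbered mice, and 139.8, 80.0 and 144 against 77.1 and 152 CPM in odd-numbered mice. Pdia6 (chromosome 12, 17266545 to 17284770, 13 exons) was 733, 781 and 792 CPM at pH 7.4 and 627, 511 and 592 CPM at pH 6.9 in even-numbered mice, and 684, 641 and 784 against 484 and 712 CPM in odd-numbered mice. Both were lower at pH 6.9 in every even-numbered library, and both overlapped in odd-numbered mice. The log2 fold changes did not pass, with -0.49 ± 0.32 (SE, edgeR adjusted p = 0.421) and -0.06 ± 0.36 for Pdia4 and -0.43 ± 0.19 (adjusted p = 0.189) and -0.23 ± 0.21 for Pdia6 in even-numbered and odd-numbered mice.

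Xbp1 (chromosome 11, 5520659 to 5525893, 5 exons) encodes the transcription factor of the IRE1 branch. Its counts are per gene, so spliced and unspliced mRNA cannot be told apart. Odd-numbered mice had 394, 319.9 and 592 CPM at pH 7.4, against 293 and 331 CPM at pH 6.9. Even-numbered mice had 323, 330.2 and 379 CPM at pH 7.4, against 425, 353 and 428 CPM at pH 6.9. It was thus lower at pH 6.9 on average in one set and higher in the other, with groups that overlapped in both sets. The changes of -0.48 ± 0.23 (SE, edgeR adjusted p = 0.192) for odd and 0.21 ± 0.20 for even numbers did not pass, nor did the difference of -0.69 between the sets (adjusted p = 0.132).

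Herpud1 (chromosome 8, 94386438 to 94395377, 8 exons) encodes a membrane protein of the complex that sends misfolded proteins out of the ER for degradation. Odd-numbered libraries held 186, 242 and 179 CPM at pH 7.4, against 114 and 149 CPM at pH 6.9. Even-numbered libraries held 174, 159 and 198 CPM at pH 7.4, against 252, 255 and 178 CPM at pH 6.9. The odd-numbered groups were apart, lower at pH 6.9, while in even-numbered mice 2 of 3 libraries at pH 6.9 were above all 3 at pH 7.4. Neither change passed on its own, with -0.62 ± 0.22 (SE, edgeR adjusted p = 0.082) for odd and 0.35 ± 0.20 (adjusted p = 0.33) for even numbers. Their difference passed, at -0.96 ± 0.30 (odd minus even, adjusted p = 0.0298), and was the 1 call among the 10 genes, where 1924 of all genes (18.1%) were called. At pH 6.9 the odd-numbered mice were below the even-numbered mice by -0.78 ± 0.22 on the log2 scale (adjusted p = 0.026), the 1 call of 10 there, against 1532 genes (14.4%). Both calls ended with the mouse number as a term (-0.83 with adjusted p = 0.085, and -0.67 with adjusted p = 0.142) and over all 18 libraries (-1.17 with adjusted p = 0.357, and -0.98 with adjusted p = 0.236). The difference also did not pass without pH 7.4 replicate 2, 3 or 4 or pH 6.9 replicate 1, 2 or 4 (adjusted p = 0.0595 to 0.131), nor the contrast at pH 6.9 without pH 6.9 replicate 1, 2 or 4 (adjusted p = 0.0662 to 0.206). Over all alternatives the adjusted p of Herpud1 ran from 0.0163 to 0.357 for the difference and from 0.0119 to 0.236 at pH 6.9. At pH 7.4 the sets differed in 0 of 10 genes by adjusted p and in 1 by unadjusted p under 0.05, against 355 genes (3.33%) and 19.6% of genes, and DESeq2 called 0 of 10. In fresh cells the count was 0 of 10 by either p, against 6 genes (0.0563%) and 7.66% of genes, and 0 of 10 by DESeq2. Of 10654 genes DESeq2 called 783 between the sets at pH 7.4 and 57 in fresh cells.

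Summed levels of some marker lists lay apart between the pH values. Of 10 marker lists, the summed level at pH 6.9 lay apart from that at pH 7.4 for 6 in even-numbered mice (4 lower and 2 higher) and for 4 in odd-numbered mice (1 lower and 3 higher). Of single genes, 16.4% lay entirely lower and 15.6% entirely higher in even-numbered mice. In odd-numbered mice 19.4% lay lower and 19.1% higher. A sum over a list is unlike a single gene, and no share was computed for lists of other genes. How unusual such lists are was thus not tested. The 9 markers of granulocyte-monocyte progenitors summed to 1784 to 5149 CPM in the 3 even-numbered libraries at pH 7.4 and 71.4 to 100.3 CPM in the 3 at pH 6.9. The odd-numbered libraries summed to 88.3 to 140.2 CPM at pH 7.4, against 175 to 178 CPM at pH 6.9. Mpo, the granule enzyme myeloperoxidase, was 1079.9, 1019 and 3130.4 CPM in even-numbered mice at pH 7.4, against 1.16, 9.88 and 6.54 CPM at pH 6.9. Among fresh libraries, replicate 5 held 5567 CPM of these markers, and of the 10 genes 4 were highest and 2 lowest of the 4 fresh libraries in it.

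The lists of other cells that lay apart in both sets did so in opposite directions. T and NK cell markers summed to 55.6 to 108 CPM at pH 7.4 and 6.88 to 12.3 CPM at pH 6.9 in even-numbered mice. The odd-numbered sums were 9.50 to 22.9 and 25.3 to 64.6 CPM. Most of each sum was Nkg7, while Cd3e was at 0 in 16 of 18 libraries. Nkg7 held 70.3, 52.3 and 106 CPM of the even-numbered sums at pH 7.4 and 9.86, 4.79 and 10.2 CPM at pH 6.9. Of the odd-numbered sums Nkg7 held 20.5, 22.1 and 9.50 CPM at pH 7.4, and 23.4 and 64.0 CPM at pH 6.9. Monocyte, macrophage and dendritic markers summed to 185 to 237 CPM at pH 7.4 and 149.7 to 175 CPM at pH 6.9 in even-numbered mice, against 92.1 to 254 and 302 to 314 CPM in odd-numbered mice. Most of each sum was Lyz2, which overlapped between the pH values in both sets. Ccr2 was lower at pH 6.9 in even-numbered mice, at 16.7, 16.2 and 39.0 against 0, 0 and 2.31 CPM. Cd74 was higher at pH 6.9 in odd-numbered mice, at 0, 4.90 and 7.92 against 75.9 and 108 CPM. Mast cell and basophil markers were apart in even-numbered mice alone, at 37.9 to 179.0 CPM at pH 7.4 and 2.32 to 23.6 CPM at pH 6.9. Pecam1, an endothelial gene that stem cells also express, was 132, 101.4 and 98.3 CPM at pH 7.4 and 259, 279.6 and 346 CPM at pH 6.9 in even-numbered mice. In odd-numbered mice Pecam1 was 316, 210.5 and 222 CPM at pH 7.4 and 59.2 and 68.8 CPM at pH 6.9, while Cdh5 was at 0 in 17 of 18 libraries. The LT-HSC list was 794 to 967 CPM at pH 7.4 and 1528 to 2020 CPM at pH 6.9 in even-numbered mice. Most of that gap was Ly6a, which encodes the surface antigen Sca-1, at 170.2, 336 and 109.6 CPM at pH 7.4 and 787, 1065 and 918 CPM at pH 6.9. Without it the list summed to 747, 630.5 and 685 CPM at pH 7.4 and 740.3, 955 and 948 CPM at pH 6.9, so the groups overlapped. The plasma cell and B cell list summed to 26.3 to 89.9 CPM over the 15 libraries. The part of these markers in the levels of the 10 genes was not tested, and in such bulk samples fewer cells of a type and less RNA per cell cannot be told apart.

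Between pH 7.4 culture and fresh cells, Xbp1 was the 1 gene of the 10 with separate groups. Fresh libraries held 257, 252, 317 and 318 CPM of Xbp1, and all 6 pH 7.4 libraries lay above them, from 319.9 to 592 with a median of 354.5 CPM. Of all genes, 0.854% had the 6 pH 7.4 libraries above the 4 fresh libraries and 0.91% below. The margin between the highest fresh and the lowest pH 7.4 library was small, and the mean of the within-set changes was 0.44 ± 0.16 (SE) on the log2 scale, with an edgeR p of 0.0148 before and 0.24 after adjustment. Between pH 6.9 culture and fresh cells 0 of the 10 genes had separate groups, against 0.91% of genes above and 0.994% below. The means of the within-set changes there were -0.50 ± 0.19 for Hspa5 (SE, edgeR adjusted p = 0.355) and -0.52 ± 0.20 for Hsp90b1 (adjusted p = 0.369). Within the sets, 0 of 10 genes were called in the comparisons of either culture with fresh cells. Of all genes, pH 7.4 culture called 0.113% with odd and 0.103% with even numbers, and pH 6.9 culture 0.6% and 10.9%. At an unadjusted p under 0.05 the counts of the 10 were 1 and 0 at pH 7.4 (10.5% and 12.4% of all genes) and 2 and 2 at pH 6.9 (13.6% and 24.7%), and DESeq2 called 0 of 10 in each. Of all genes, DESeq2 called 173 of 10654 with odd and 135 of 8177 with even numbers at pH 7.4. At pH 6.9 it called 264 and 1589 of 10654. Against fresh cells at pH 6.9, the members at the unadjusted threshold were Hspa5 (-0.70 ± 0.29, SE) and Hsp90b1 (-0.74 ± 0.30) in odd-numbered mice and Dnajb11 (-0.52 ± 0.22) and Herpud1 (0.55 ± 0.22) in even-numbered mice. Without pH 6.9 replicate 5, Hsp90b1 fell by 1.38 on the log2 scale in odd-numbered mice, with an edgeR adjusted p of 0.047 (0.047 to 0.819 over all alternatives). That value rests on 1 library at pH 6.9, which is assumed to vary like the other groups. These comparisons share their fresh libraries with each other and their cultured libraries with the comparison of the pH values.

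The 2 libraries with few genes detected held unusual amounts of the 10 genes. On unscaled library totals, Dnajc3 was 2.94 times the median of the 15 libraries in fresh replicate 4 and 4.46 times in pH 6.9 replicate 3. Dnajb9 was 2.54 and 3.05 times that median, Hspa5 1.71 and 2.30 times, Hsp90b1 1.69 and 2.05 times, and Sdf2l1 1.62 and 2.45 times. Each of these 5 was above the maximum of the 15 libraries in both, against 12.7% of 8076 genes with a median above 10 CPM. Xbp1 stood at 0.191 and 0.240 times the median and Herpud1 at 0.112 and 0.297 times, both below the minimum of the 15 in both libraries, as were 46.7% of genes. Pdia4 and Pdia6 lay within the range of the 15 in both libraries, and Dnajb11 within it in fresh replicate 4 and just below it in pH 6.9 replicate 3 (153.2 against a minimum of 157 CPM). The direction of these 7 genes was also seen on TMM-scaled values, where Pdia6 was above the maximum as well, at 1099.5 and 1029 CPM. Fresh replicate 1 held 0 to 6 counts of each of the 10 genes, so at 6311 counts no level could be read from it. Of the other ER lists, 4 of 25 other chaperones were above in both libraries and 10 below, 2 of 18 isomerases above and 5 below, 2 of 27 degradation genes above and 17 below, and 7 of 34 translocon genes above and 15 below. Of 6 sensors and transducers 1 was above and 2 below, and of 7 genes of the PERK branch, which holds ATF4 targets, 0 were above and 5 below. What sets these 2 libraries apart was not tested.

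**Figure D3:**
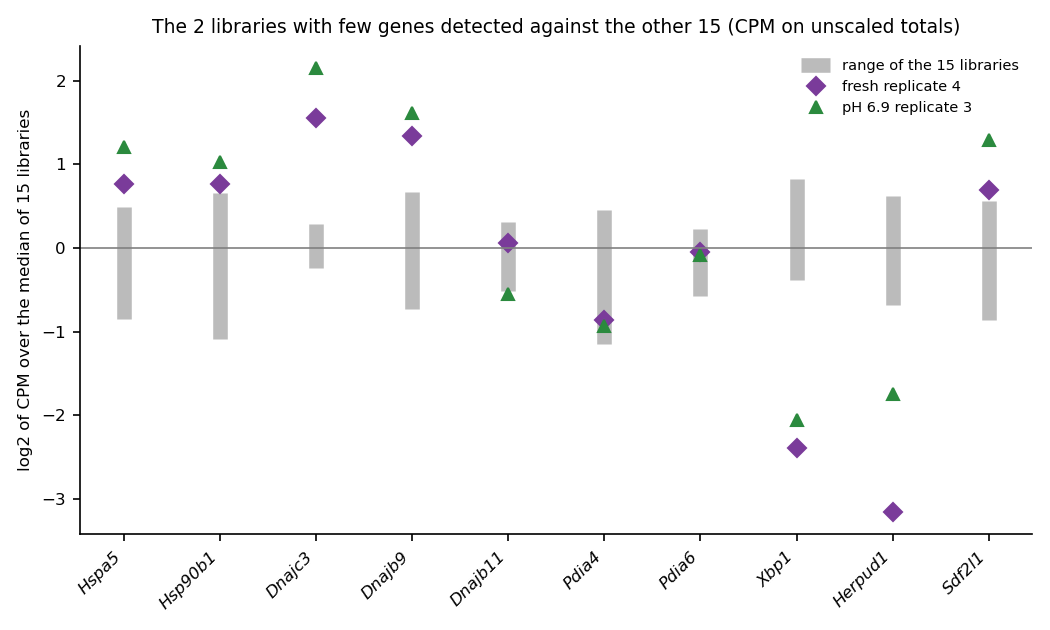
For each gene (horizontal axis), symbols give the log2 ratio of CPM on unscaled totals to the median of the 15 libraries in fresh replicate 4 (diamonds) and pH 6.9 replicate 3 (triangles), and grey bars give the range of the 15 libraries. Dnajc3 is highest, at ratios of 2.94 and 4.46, and Herpud1 and Xbp1 lie below the grey bars.

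Across the 15 libraries the 10 genes did not move as one. Of 45 pairs, 13 had a Pearson correlation of log2 CPM above 0.5 and 14 had one below 0, with a median of 0.148. Pdia6 and Sdf2l1 were the most alike (0.922), followed by Hspa5 with Hsp90b1 (0.869), Hsp90b1 with Sdf2l1 (0.835), Hsp90b1 with Pdia6 (0.809) and Hsp90b1 with Pdia4 (0.803). Dnajb9 ran opposite to Pdia6 (-0.66), Sdf2l1 (-0.58) and Hspa5 (-0.56), and Dnajb11 opposite to Herpud1 (-0.61). Hspa5, Hsp90b1, Pdia4, Pdia6 and Sdf2l1 had mutual values from 0.614 to 0.922, and 2 of them, Pdia4 and Sdf2l1, had no exact ERSE in the promoter window. Pairs of other genes were not correlated, so how common such values are over these libraries is not known. The values are descriptions over 15 libraries that share groups, sets of mice and depth. Against the mean of the 10, Pdia4 (0.895) and Hsp90b1 (0.866) were most alike among them and Dnajb9 (-0.31) least. Each of the 10 is itself part of that mean, which raises its value, so these values do not compare with those of genes outside it. Among all genes above 20 CPM that are not members, the 8 with the highest correlation with that mean over the 15 libraries were Ddx10 (0.874), Stt3a (0.870), Gtf2e1 (0.857), Ergic2 (0.849), Nfs1 (0.848), Pcnp (0.835), Hars (0.834) and Rngtt (0.826). Stt3a encodes a subunit of the oligosaccharyltransferase of the ER, and the others of these 8 are on none of the lists used here. As the highest of many genes searched, these values are high by selection.

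**Figure D4:**
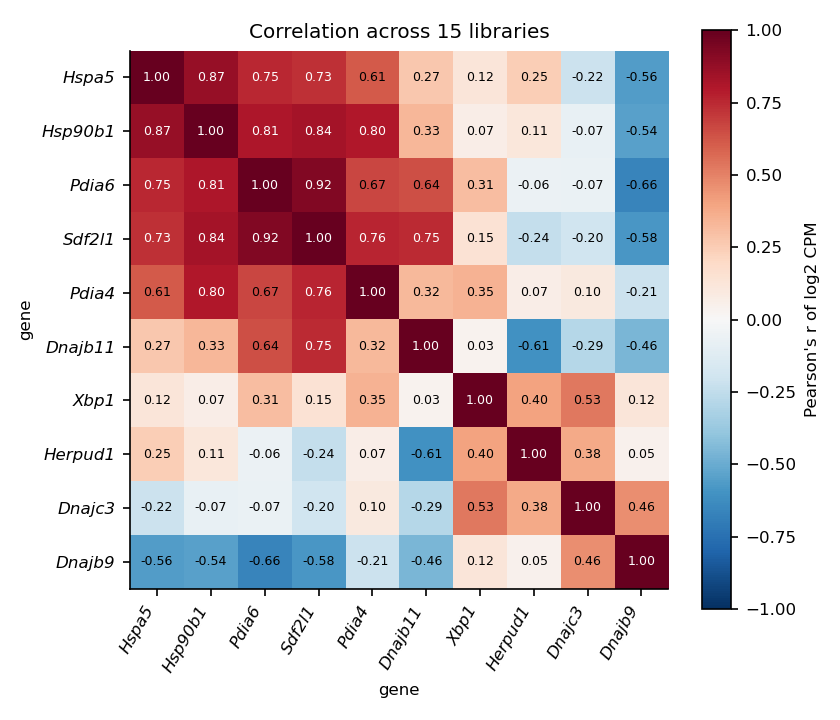
Each cell gives Pearson's r of log2 CPM over the 15 libraries for the pair of genes on the axes, from blue (negative) to red (positive). The block of Hspa5, Hsp90b1, Pdia6, Sdf2l1 and Pdia4 holds values from 0.614 to 0.922, while Dnajb9 is negative with each of them.

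Other genes of the ER pathway were described with 6 lists chosen by function, of which 132 genes were tested in the 15 libraries. Over 18 libraries 0 of them passed in any group comparison by edgeR's adjusted p, as for all genes (0%), and 5, 1 and 3 had an unadjusted p under 0.05 for pH 6.9 against pH 7.4, pH 7.4 against fresh and pH 6.9 against fresh (2.51%, 3.77% and 2.27% of all genes). In even-numbered mice 6 of the 132 (4.55%) fell at pH 6.9 and 0 rose, where 6.75% of all genes were called. Among the 28 genes placed on the list of other chaperones and cochaperones, those were Calr, a lectin chaperone that binds calcium (-0.70 ± 0.19, SE, adjusted p = 0.0342), Erp29 (-0.71, adjusted p = 0.0306) and Mydgf (-0.89, adjusted p = 0.0101). Edem1, a mannosidase-like protein of degradation (-0.89, adjusted p = 0.0454), fell among 28 degradation genes, and Ssr2 (-0.87, adjusted p = 0.00795) and Rpn2 (-0.58, adjusted p = 0.0173), subunits of the translocon-associated complex and of the oligosaccharyltransferase, among 35 translocon genes. None of 21 isomerases, 11 sensors and transducers and 9 PERK branch genes passed there by adjusted p, with 6, 1 and 2 under an unadjusted p of 0.05 (21% of all genes). The list medians in even-numbered mice were -0.19 for the other chaperones, -0.18 for the isomerases, -0.05 for degradation, -0.22 for the translocon, 0.26 for the sensors and 0.50 for the PERK branch, beside 0.04 for all genes. The 3 sensors, named for their role after their values were seen, had changes within or close to 1 SE of 0, with 0.26 ± 0.51 for Ern1, 0.76 ± 0.75 for Eif2ak3 and -0.18 ± 0.40 for Atf6, at mean levels of 6.73 to 18.7 CPM over the cultured groups.

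In odd-numbered mice the same lists gave 6 genes that rose and 5 that fell at pH 6.9, together 8.33% of the 132, where 11.1% of all genes were called. The list medians there were 0.06 for the other chaperones, -0.12 for the isomerases, -0.25 for degradation and -0.07 for the translocon. For the sensors the median was -0.18 and for the PERK branch 0.05, beside -0.08 for all genes. Mydgf rose by 0.79 (adjusted p = 0.0232), opposite to its fall in even-numbered mice, and the difference of 1.68 passed edgeR's test (adjusted p = 0.000576). Fkbp11 (2.22, adjusted p = 0.00621) and Ppib (0.71, adjusted p = 0.0309), proline isomerases, rose, while Tmx1, a thioredoxin-like membrane protein, fell (-1.35, adjusted p = 0.00285). The degradation ligase Rnf185 (-1.92) fell, as did Tram1 (-1.01) and Spcs3 (-0.98) of the translocon, while Ssr4 (0.91) and Ostc (0.72) rose. Nupr1, a stress gene of the PERK list, rose by 2.48 (adjusted p = 0.0102). The changes of Calr and Erp29 also differed between the sets, by 1.07 (adjusted p = 0.0129) and 1.31 (adjusted p = 0.00313). In all, 12 of the 132 genes (9.09%) passed the test of the difference between the sets, where 18.1% of all genes did.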

How the data were processed

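RNA-seq values of 18 libraries were used. The submitters' processing notes name kallisto and the build mm10, with no version. The authors deposited 1 table of estimated counts per gene symbol, all whole numbers. The step from transcripts to rounded gene values is not stated in these sources. The SMART-Seq v4 and Nextera XT kits of the labels' protocols keep no strand, and reads were paired ends of 75 bp.

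In edgeR 4.0.16 under R 4.3.3, low genes were removed with filterByExpr, totals were scaled with TMM, and robust quasi-likelihood tests were adjusted by Benjamini-Hochberg over all genes tested (threshold 0.05). One fit used 18 libraries with a coefficient per group (10104 genes). The other used 15 libraries, without those under 100000 counts or 10000 genes detected, with a coefficient per group and set of odd-numbered or even-numbered mice (10659 genes). DESeq2 1.42.0 and other settings were alternatives.

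The 10 genes, the lists and the tests were chosen with earlier results of these data known. All 10 genes are named. Of the 6 pathway lists up to 3 called genes per list and direction that reach 10 CPM in a group are named, taking the largest fold changes, and for likeness the 8 genes most correlated with the members' mean. Some genes that this rule or the marker lists would name are not reported here. The 93 marker genes of 10 lists (90 in the table) were used to check the labelled cell type. Pairing by mouse rests on the design text. Profiles of same-numbered libraries, as deviations from their set means, had a median correlation of 0.0275 (-0.0951 to 0.156 over 12 pairs), against -0.0106 in 62 other pairs. A gene at 0 may hold up to 3 counts of that library's total, which covers counting error only. Libraries were amplified without molecular identifiers, and this bound does not cover the effect of amplification. Nothing beyond the 6 mice says how independent the libraries of a group are, so p values measure the spread between these libraries. Gene coordinates are from GENCODE M21 on GRCm38 and promoters from RefSeq on GRCm38.p6.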

Additional observations from a re-analysis of the deposited data

Results flagged for a closer look

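In 11 of 30 sets of 6 libraries (10 genes in 3 groups), 1 library was further from its nearest neighbour than Dixon's criterion allows, where chance alone flags about 1 in 20 such sets. Of these, 5 were fresh replicate 4 and 5 were pH 6.9 replicate 3, the libraries with few genes detected, and flags in 1 library are not independent of each other. Hspa5 was 2658 CPM in fresh replicate 4 and 3428 CPM in pH 6.9 replicate 3. Hsp90b1 was 1730.1 and 1999 CPM in them, Dnajc3 935 and 1355 CPM, and Dnajb9 162 and 186 CPM. Sdf2l1 was 549 CPM in pH 6.9 replicate 3. Xbp1 was lowest in fresh replicate 4, at 103 CPM, and highest in pH 7.4 replicate 5, at 592 CPM, a library with 11250 genes detected that was kept in all fits. Fresh replicate 1 is in the fresh sets but rests on 6311 counts.

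The effect of pH on Herpud1 differed between odd-numbered and even-numbered mice by -0.96 on the log2 scale (edgeR adjusted p = 0.0298 for the difference). It did not hold with the mouse number as a term or over all 18 libraries, as given above.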

How the results depend on the processing

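The 10 genes in 13 comparisons give 130 fold changes, which took 1597 values under the alternatives, 9 to 18 for each. Of these values, 1417 had the sign of the value reported, 180 had the other sign while not called, 21 calls were lost, 11 were gained and 0 called values changed sign. The number of the 10 genes called moved as follows. Without the low-count filter it was 1 in odd-numbered mice between the pH values, 3 in even-numbered mice and 2 for the difference between the sets. With DESeq2 it was 3 in even-numbered mice. With the replicate block (mouse number as a term) it was 0 for the difference and 0 between the sets at pH 6.9, while the count in even-numbered mice was 1 and the gene was Sdf2l1 in place of Hsp90b1. The block changed no other call. With all 18 libraries it was 0 in even-numbered mice, 0 for the difference and 0 between the sets at pH 6.9. Leaving out 1 library at a time gave 0 to 1 in even-numbered mice, 0 to 2 for the difference, 0 to 1 for pH 6.9 against fresh in odd-numbered mice, 0 to 1 between the sets at pH 6.9, and 0 in the other comparisons. Where that leaves 1 library in a set, it is assumed to vary like the others. DESeq2's size factors in edgeR moved no count. The mean of the within-set effects, chosen after seeing the data, also called 0 of the 10.

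Among all genes, the counts called between the pH values were 1181 in odd-numbered mice (775 with the block, 65 with 18 libraries, 1620 unfiltered, 1666 by DESeq2, 464 to 1365 leaving out 1 library) and 719 in even-numbered mice (657, 0, 1042, 1097, and 161 to 491). The difference called 1924 (1628, 173, 2304, 2330, and 1390 to 2017), and the sets at pH 6.9 differed in 1532 (1107, 152, 1942, 2052, and 752 to 1368). The median of all genes for that difference was -0.14, so member values can be read against it. The calls of the pathway lists were computed in the 15-library fit alone. Dnajb9 had the fewest counts of the 10 genes, 53 to 305 in each of the 15 libraries, and the effect of depth was not tested. The cause of these shifts was not tested.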
